A study of Mus musculus with 12 samples.

Results

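The genes described here encode the synaptic vesicle fusion and recycling machinery. They are 34 of the 18394 genes in the deposited count table, chosen by symbol as SNARE proteins, vesicle membrane proteins, Rab3 proteins with their effectors, and endocytosis proteins. All 34 passed the filter on low counts that left 15467 genes for testing. Their messenger RNA was measured by sequencing in the cerebella of 12 mice, 6 with the genotype deltaalpha6-Cre Crfr1 knock-out (cKO) and 6 wild type (WT). Crfr1 is a receptor for corticotropin-releasing factor, and the name of the Cre driver refers to Gabra6, which encodes a GABA-A receptor subunit found in cerebellar granule cells. The labels do not state age, sex, strain or whether WT mice carried any allele of the cross, and no group carrying Cre alone is labelled. A library holds RNA of the whole cerebellum, so fewer cells of a type and less RNA per cell cannot be told apart.

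At a presynaptic terminal, vesicles filled with transmitter dock at the membrane and fuse when SNARE proteins of the vesicle and of the plasma membrane zip together. NSF and its SNAP adaptors then pull the spent SNARE complexes apart, while dynamin, amphiphysin, endophilin, synaptojanin and clathrin adaptors retrieve the membrane as new vesicles. In the cerebellum most such terminals belong to the parallel fibres of granule cells, and the rest to mossy fibres, climbing fibres, inhibitory interneurons and Purkinje cells. The messenger RNA of a terminal is made mainly in the cell body. A library of cerebellar tissue therefore carries the vesicle genes of neurons whose cell bodies lie in the dissected piece, and much less of those whose axons only enter it.

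Library totals ran from 32.3 to 58.7 M counts in cKO and from 23.8 to 62.1 M in WT (1 M is 1000000 counts). Crhr1, which is the table's symbol for Crfr1, measured 98.8 ± 6.00 CPM in cKO and 97.6 ± 4.31 CPM in WT (SD, n = 6 each; CPM, counts per 1 M after TMM scaling), and Gabra6 measured 623 ± 29.99 CPM in cKO and 813 ± 56.1 CPM in WT. Crhr1 counts sum the whole gene over all cells and so do not check the deletion. The granule cell markers checked were abundant, with a summed level of 6860 to 7389 CPM over 11 genes in cKO and of 7248 to 7497 CPM in WT, and 1 of the 11 rose and 4 fell. Of 8 markers of molecular layer and Golgi interneurons 1 fell, of 7 microglia markers 2 rose, and of 5 markers of unipolar brush cells 1 rose and 2 fell. The mean log2 CPM of a list separated the genotypes fully for unipolar brush cells (5.54 to 5.76 in cKO, 5.87 to 5.94 in WT) and for interneurons (5.67 to 5.75 in cKO, 5.78 to 5.83 in WT), with an adjusted p of 0.0108 each in two-sided exact permutation tests over 10 marker lists. The summed level of the unipolar brush cell list went the other way, with 971 to 1034 CPM in cKO and 919 to 938 CPM in WT. By the same test granule cell markers were lower (8.95 to 9.06 in cKO, 9.03 to 9.10 in WT, adjusted p = 0.0289) and microglia markers higher (3.35 to 3.62 in cKO, 3.28 to 3.40 in WT, adjusted p = 0.0379). The granule cell list includes Gabra6, 1 of the 4 that fell (log2 fold change −0.38, SE 0.04, edgeR adjusted p = 1.45e-05). Etv1 was the 1 that rose (0.20, SE 0.03, edgeR adjusted p = 0.00033), and the list was not tested without Gabra6. All marker lists were chosen with earlier results of these data known, so these p-values are no independent support for a shift in cell types. The part of these cell types in the results below was not tested. Across all genes, 409 of 15467 passed the test (quasi-likelihood test of edgeR with Benjamini-Hochberg adjustment, at an adjusted p under 0.05), with 196 higher and 213 lower in cKO. Fewer passed with a score of non-cerebellar tissue as a covariate (264), without the 4 libraries highest in that score (157) or with 3 surrogate variables (189), and 138 genes were lower without WT replicate 3.

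None of the 34 genes passed the test between cKO and WT cerebella. The background share of genes called is 2.64% (1.27% higher and 1.38% lower), so fewer than 1 call would match it in a list of this length. Of the 34, 10 had an unadjusted p under 0.05 (29.4%), against 14.2% of all tested genes. The median log2 fold change (cKO over WT) was 0.005 over the 34 genes and −0.0003 over all tested genes, with 19 of the 34 above 0 and 15 below. That split moved with the settings, to 14 above and 20 below with surrogate variables. In no member did the 6 cKO libraries lie wholly above or below the 6 WT libraries, a separation seen in 2.09% of tested genes. DESeq2 run on the same counts called 1 member, Doc2b, against a background of 3.99% of its tested genes. The authors' deposited table also has an adjusted p under 0.05 for Doc2b alone among the members, against 3.71% of all its genes with an adjusted p.

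For most members the data bounded a difference closely. The 95% interval of the fold change lay wholly within 1.1-fold in either direction for 26 of the 34, within 1.2-fold for 30 and within 1.5-fold for 31. Among all tested genes the shares were 48.2%, 74.3% and 91.7%, though many of those genes are rarer than the members. The members whose interval reached past 1.1-fold were Stx1a, Doc2a, Slc17a6, Rab3b, Sv2c, Synpr, Doc2b and Dnm3. In 27 of the 34 the highest of the 12 libraries was less than 1.2 times the lowest. The tightest was Snap91, which encodes the clathrin assembly protein AP180, with 368 to 376 CPM in cKO and 359 to 373 CPM in WT.

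**Figure D1:**
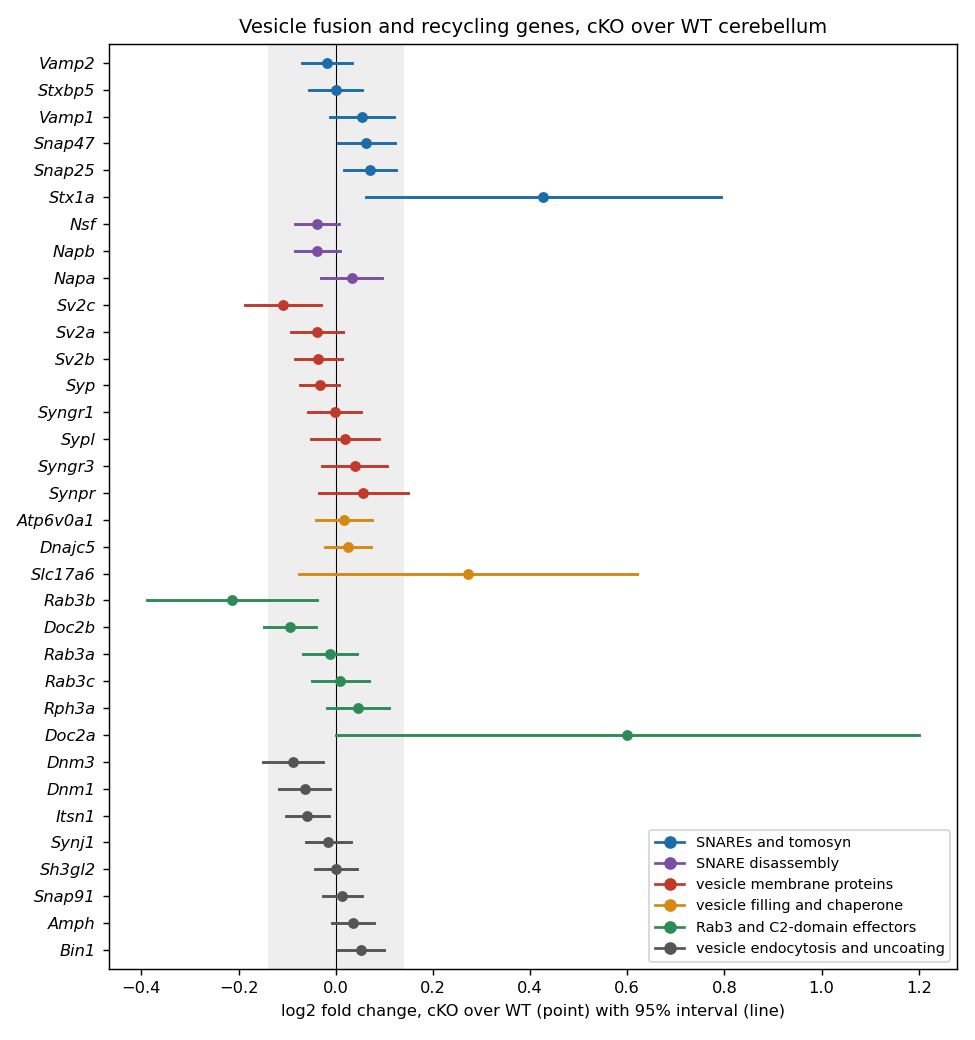
Log2 fold change of each of the 34 genes, cKO over WT (x axis), with genes down the page by role. Points are edgeR estimates and lines their 95% intervals (6 libraries per genotype), and the grey band spans 1.1-fold in either direction. For 26 genes the interval lies inside the band, and Doc2a, Stx1a and Slc17a6 have the widest intervals.

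The exceptions to this narrow spread were Stx1a, Doc2a and Slc17a6, singled out after their values were seen. Stx1a encodes syntaxin 1A, a SNARE of the plasma membrane. Doc2a encodes a calcium-binding protein with C2 domains that takes part in spontaneous and asynchronous release. Slc17a6 encodes VGLUT2, the transporter that fills vesicles with glutamate in many neurons of the thalamus, midbrain and hindbrain, and in the cerebellum marks excitatory neurons of the nuclei. The ratio of the highest to the lowest library was 2.98 for Stx1a, 5.45 for Doc2a and 2.40 for Slc17a6, against 1.71 for Rab3b, the next member.

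RefSeq promoter windows (GRCm38.p6, from 250 bases before to 50 after the annotated start) were at hand for 27 of the 34 members. Those of Stx1a and Slc17a6, the widely varying members with a window, are printed to show what sequence lies at their starts. Stx1a is at chr5:135023232-135023531 and Slc17a6, with the more upstream of its annotated starts, at chr7:51621580-51621879, both on the plus strand. Capitals mark matches on either strand to the GC box GGGCGG, the core TGACG of the cAMP response element and the E-box form CAGATG, none of which overlap here. Other forms of the E-box were not searched. 
Stx1a: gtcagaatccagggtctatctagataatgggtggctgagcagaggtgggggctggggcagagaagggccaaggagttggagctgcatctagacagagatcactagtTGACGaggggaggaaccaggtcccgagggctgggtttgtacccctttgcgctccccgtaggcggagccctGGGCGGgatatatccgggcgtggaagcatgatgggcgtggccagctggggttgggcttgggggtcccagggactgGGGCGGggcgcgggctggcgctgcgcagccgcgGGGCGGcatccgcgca
Slc17a6: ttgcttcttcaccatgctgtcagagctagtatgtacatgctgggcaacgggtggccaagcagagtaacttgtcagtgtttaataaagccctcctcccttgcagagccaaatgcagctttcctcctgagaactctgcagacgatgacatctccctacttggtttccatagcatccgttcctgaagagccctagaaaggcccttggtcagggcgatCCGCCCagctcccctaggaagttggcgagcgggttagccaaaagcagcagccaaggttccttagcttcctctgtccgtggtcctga
The Stx1a window holds 3 GC boxes, 1 cAMP response core and 0 E-boxes of the form CAGATG, and the Slc17a6 window holds 1 GC box and 0 of the others. Among 32851 windows of the same length, 35.7% hold the GC box, 20.8% the cAMP response core and 17.2% that E-box form. These letters describe the windows and say nothing of binding.

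Stx1a measured 2.85 CPM in the lowest, 3.17 in the median and 6.03 in the highest cKO library, against 2.02, 2.41 and 3.39 CPM in WT. All 6 cKO libraries exceeded the WT median, 2 of them lay above every WT library, and the groups overlapped. It had a log2 fold change of 0.43 (SE 0.17, 95% interval from 0.06 to 0.79; edgeR adjusted p = 0.256), and 0.25 without cKO replicate 1. Doc2a measured 0.93, 1.55 and 2.75 CPM in the lowest, median and highest cKO library, against 0.51, 1.02 and 2.17 CPM in WT, from 12 to 130 counts per library. Its log2 fold change of 0.60 had an SE of 0.29 (edgeR adjusted p = 0.352). Doc2a overlaps Ino80e on the opposite strand, and the strand rule of the counting is not known. Slc17a6 measured 20.3, 36.1 and 48.7 CPM in the lowest, median and highest cKO library, against 23.5, 27.3 and 43.3 CPM in WT (log2 fold change 0.27, SE 0.17, edgeR adjusted p = 0.492). Without cKO replicate 3 that value was 0.16, and without WT replicate 5 it was 0.41. Its lowest library and its highest were both cKO.

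The levels of these 3 genes are set beside markers of brain tissue outside the cerebellum, which also varied between libraries. A score was taken as the mean log2 CPM of 21 markers of forebrain, midbrain and brainstem (with 0.1 CPM added). It ran from −0.42 to 0.08 in cKO and from −0.49 to −0.20 in WT, with means of −0.18 in cKO and −0.35 in WT, a difference that did not pass a two-sided exact permutation test (p = 0.0649, 0.13 adjusted over the 10 lists). Of the 21 markers 12 could be tested and 1 rose. The summed level was 170 to 193 CPM in cKO and 177 to 190 CPM in WT, and 8 markers stood at 0 in at least 1 library. Most of the sum was Ppp1r1b, with 128 to 144 CPM in cKO and 133 to 147 CPM in WT, so it says little of the other markers. Tcf7l2, a transcription factor of thalamus and midbrain and 1 of the 21, had 8.69 to 22.98 CPM in cKO and 6.14 to 17.98 CPM in WT. Other markers of the 21 did not all follow it. Rgs9 had 4.12 to 6.43 CPM in cKO and 5.44 to 8.79 CPM in WT, with its highest level in WT replicate 4. A list of 5 markers of cerebellar nuclear neurons, which includes Slc17a6 itself, summed to 59.5 to 104 CPM in cKO and to 66.9 to 93.9 CPM in WT, with 0 of 5 called. That list shares Tbr1 and Neurod6 with the 21 markers, so it and the score are not separate measures.

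The 4 libraries with the highest score were cKO replicates 1, 3 and 2 and WT replicate 5. The same 4 were the highest for Doc2a, with at least 1.76 CPM against at most 1.35 in the other 8, and for Slc17a6, with at least 39.4 CPM against at most 32.8. For Stx1a, Snap25, Vamp1 and Rab3c 3 of the 4 were among the 4 highest libraries, and for the other 28 members at most 2 were. The highest Stx1a level and the highest score were both in cKO replicate 1. With the score as a covariate the log2 fold change was 0.04 (SE 0.12) for Stx1a, −0.05 (SE 0.20) for Doc2a and −0.11 (SE 0.12) for Slc17a6. Without the 4 libraries, which leaves 3 cKO and 5 WT, the values were 0.23 (SE 0.14), 0.33 (SE 0.21) and 0.07 (SE 0.12). No member was called in either fit (edgeR smallest adjusted p = 0.14 and 0.255).

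**Figure D2:**
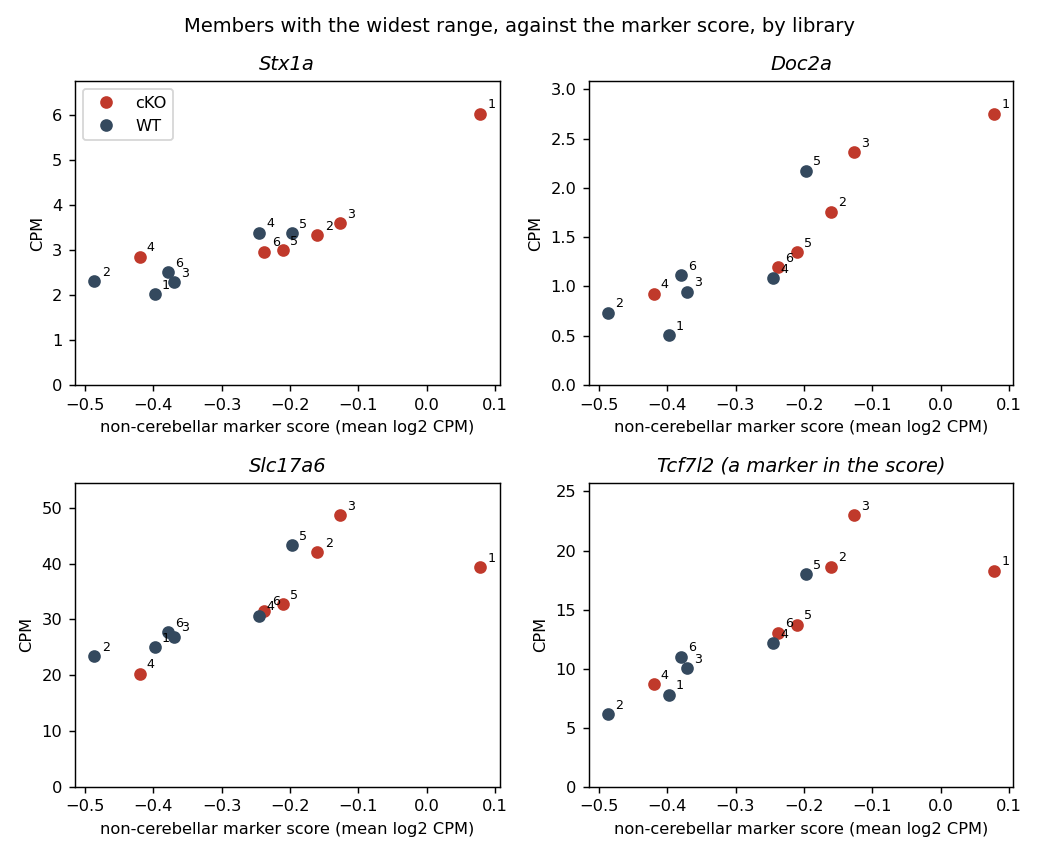
Level of Stx1a, Doc2a, Slc17a6 and the marker Tcf7l2 in CPM (y axes) against the score of non-cerebellar brain markers (x axes, mean log2 CPM) in each of the 12 libraries, numbered by replicate within genotype. The 4 libraries with the highest score, cKO replicates 1, 2 and 3 and WT replicate 5, hold the 4 highest levels of Doc2a and of Slc17a6. Tcf7l2 is 1 of the 21 markers in the score, and others do not all follow it.

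Per length of the gene's joined exons, the members spanned a wide range of levels. Snap25 came first with 365 ± 11.9 CPM per kb in cKO and 348 ± 11.6 in WT (SD, n = 6 each), then Dnm1 with 236 ± 9.15 in cKO and 246 ± 4.83 in WT, and Vamp2 with 184 ± 4.49 in cKO and 186 ± 5.94 in WT. Syp and Rab3a followed at 173 ± 3.11 and 174 ± 6.15 CPM per kb in cKO, against 177 ± 2.01 and 176 ± 5.13 in WT, and did not differ from each other beyond their spread. Syngr1 and Sv2a, at 122 ± 3.33 and 121 ± 4.03 CPM per kb in WT, lay within their spread too. At the bottom, in WT, stood Sv2c with 4.53 ± 0.22 CPM per kb, Rab3b with 2.79 ± 0.16, Stx1a with 0.99 ± 0.22 and Doc2a with 0.39 ± 0.21. Joined exons can be longer than the transcripts a tissue uses, so these levels are approximate.

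Of the 6 genes for SNAREs and tomosyn, 5 had an interval within 1.1-fold, the exception being Stx1a. Snap25, the plasma membrane SNARE that gives the complex a pair of its helices (chromosome 2, 136713453 to 136782428, mm10), measured 2370, 2462 and 2598 CPM in the lowest, median and highest cKO library, against 2220, 2367 and 2458 CPM in WT. All 6 cKO libraries exceeded the WT median and 4 exceeded every WT library, but the groups overlapped. It had a log2 fold change of 0.07 (SE 0.03, 95% interval from 0.02 to 0.12; edgeR adjusted p = 0.198), and its two-sided exact permutation p, unadjusted, was 0.0238. Permutation p-values of single members are given only for the 6 with the smallest edgeR p in these same libraries. They are therefore no separate support for those members. Vamp2, the main vesicle SNARE of the forebrain, averaged 701 ± 17.1 CPM in cKO and 709.5 ± 22.6 CPM in WT, with a log2 fold change of −0.018 (SE 0.02). Vamp1, its relative in fast-firing hindbrain neurons, measured 332 to 367 CPM in cKO and 318 to 361 CPM in WT (log2 fold change 0.05, SE 0.03, edgeR adjusted p = 0.466). Snap47, a broadly expressed relative of Snap25, had a log2 fold change of 0.06 (SE 0.03, edgeR adjusted p = 0.308) and 3 of 6 cKO libraries above every WT library. Stxbp5 encodes tomosyn, which competes with the vesicle SNARE and restrains fusion, and at 121 ± 4.38 CPM in cKO and 121 ± 2.65 CPM in WT its 95% interval was −0.05 to 0.05 in log2 fold change.

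The genes that take spent SNARE complexes apart stayed within 1.1-fold by their intervals. Nsf, the ATPase itself, averaged 593 ± 16.4 CPM in cKO and 609 ± 5.57 CPM in WT (log2 fold change −0.04, SE 0.02; edgeR adjusted p = 0.431). For Nsf, 4 of 6 cKO libraries lay below every WT library. The gene lies 0.179 Mb from Crhr1 on chromosome 11, the nearest of the 5 members on that chromosome to either Crhr1 or Gabra6. Napa and Napb encode the adaptors α-SNAP and β-SNAP. Their log2 fold changes were 0.03 (SE 0.03) and −0.04 (SE 0.02), with edgeR adjusted p of 0.691 and 0.476. The other members on chromosome 11 are Atp6v0a1, 3.07 Mb from Crhr1, and Snap47, Vamp2 and Doc2b, each more than 17 Mb from both genes.

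Vesicle membrane proteins had log2 fold changes of −0.11 to 0.06, with 5 of 8 below 0 (4 to 6 over the alternatives) and 0 called (edgeR, 1 with an unadjusted p under 0.05, and 0 in DESeq2). The lowest was Sv2c (chromosome 13, 95954594 to 96132577), the SV2 form with the most restricted distribution in brain. Sv2c measured 37.3, 41.2 and 42.6 CPM in the lowest, median and highest cKO library, against 39.99, 44.6 and 45.8 CPM in WT. All 6 cKO libraries lay below the WT median, and 2 lay below every WT library. The log2 fold change of −0.11 had an SE of 0.04 (95% interval from −0.19 to −0.03; edgeR adjusted p = 0.159; two-sided exact permutation, unadjusted p = 0.0217). Sv2a, the widespread form and the binding site of the drug levetiracetam, averaged 547 ± 14.9 CPM in cKO and 561 ± 18.7 CPM in WT. Sv2b averaged 286 ± 4.99 CPM in cKO and 293 ± 8.13 CPM in WT, and both had log2 fold changes of −0.04.

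The genes for tetraspan proteins of the synaptophysin and synaptogyrin families varied little, apart from Synpr, whose highest library was 1.28 times its lowest. Syp, synaptophysin, among the most abundant vesicle proteins, averaged 901 ± 16.2 CPM in cKO and 922 ± 10.5 CPM in WT (log2 fold change −0.03, SE 0.02, edgeR adjusted p = 0.461), and 4 of 6 cKO libraries lay below every WT library. Syngr1 had a log2 fold change of −0.002 (SE 0.03) and Syngr3 of 0.04 (SE 0.03). Synpr, synaptoporin, a synaptophysin relative, averaged 71.1 ± 3.83 CPM in cKO and 68.4 ± 4.89 CPM in WT (log2 fold change 0.06, SE 0.04, edgeR adjusted p = 0.616). Sypl, a relative found also outside neurons, averaged 50.5 ± 1.99 CPM in cKO and 49.9 ± 2.12 CPM in WT. Syngr1 overlaps the abundant ribosomal protein gene Rpl3 on the opposite strand, so its counts could include reads of that gene.

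Beside Slc17a6, the genes of vesicle filling and folding had close levels in both genotypes. Atp6v0a1, a membrane subunit of the proton pump that powers transmitter uptake, averaged 438 ± 20.6 CPM in cKO and 432 ± 7.01 CPM in WT (log2 fold change 0.02, SE 0.03). Dnajc5 encodes cysteine string protein, a vesicle chaperone of SNAP-25, and averaged 376 ± 7.98 CPM in cKO and 369 ± 8.70 CPM in WT (log2 fold change 0.03, SE 0.02). Slc17a7, which is no member but encodes VGLUT1, the vesicular glutamate transporter of granule cells, had a log2 fold change of −0.13 (SE 0.04, edgeR adjusted p = 0.0585).

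The Rab3 group held the member closest to the threshold. Doc2b (chromosome 11, 75768966 to 75796049), a high-affinity calcium sensor related to Doc2a, measured 114, 119 and 125 CPM in the lowest, median and highest cKO library, against 122, 129 and 130.3 CPM in WT. All 6 cKO libraries lay below the WT median, and 4 lay below every WT library. The log2 fold change of −0.09 is a level 6.33% lower in cKO (SE 0.03, 95% interval from −0.15 to −0.04; edgeR adjusted p = 0.0601). A two-sided exact permutation test gave an unadjusted p of 0.00866, where 0.00216 is the smallest possible. DESeq2 called Doc2b at the same size (log2 fold change −0.09, SE 0.03, adjusted p = 0.0193), as does the authors' deposited table, with a log2 fold change of −0.09 and an adjusted p of 0.0203. That table is also a DESeq2 result on these cerebella, so it is no separate support. Sizes were not alike for every member, as Doc2a had 0.04 there and 0.65 in the DESeq2 run here. In edgeR the gene was also called without cKO replicate 2 (adjusted p = 0.0355), without cKO replicate 5 (adjusted p = 0.036) or without WT replicate 5 (adjusted p = 0.0383), in fits that called 2.28%, 2.96% and 2.6% of all genes. With the tissue score as a covariate its log2 fold change was −0.07 (SE 0.03, edgeR adjusted p = 0.335). The edgeR adjusted p was 0.255 without the 4 libraries highest in that score, 0.483 with surrogate variables and 0.153 with thinned counts. It reached 0.161 in the leave-one-out fits. Of 21 settings, the main fit included, 4 called Doc2b.

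Rab3 proteins are GTPases that tether vesicles near the release site, and the 3 forms among the members differed widely in level. Rab3a averaged 388 ± 13.7 CPM in cKO and 391 ± 11.4 CPM in WT, and Rab3c 268 ± 11.5 CPM in cKO and 266 ± 5.60 CPM in WT, with log2 fold changes of −0.012 (SE 0.03) and 0.0096 (SE 0.03). Rab3b (chromosome 4, 108879063 to 108943324), the rarest, measured 6.34, 8.77 and 10.1 CPM in the lowest, median and highest cKO library, against 9.14, 9.82 and 10.9 CPM in WT. Of the 6 cKO libraries 4 lay below every WT library, but cKO replicate 1 lay above the WT median. The log2 fold change of −0.21 had an SE of 0.08 (95% interval from −0.39 to −0.04; edgeR adjusted p = 0.234; two-sided exact permutation, unadjusted p = 0.0325). Rph3a encodes rabphilin, a Rab3 effector with C2 domains, and averaged 542 ± 20.3 CPM in cKO and 525 ± 22.5 CPM in WT (log2 fold change 0.05, SE 0.03, edgeR adjusted p = 0.529).

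Endocytosis genes held 4 of the 10 members with an unadjusted p under 0.05, 3 with a negative and 1 with a positive log2 fold change. Dnm3 (chromosome 1, 161982453 to 162478034), a dynamin of brain and testis, measured 292, 306 and 319 CPM in the lowest, median and highest cKO library, against 316, 318 and 355 CPM in WT. Of the 6 cKO libraries 5 lay below every WT library. Dnm3 had a log2 fold change of −0.09 (SE 0.03, 95% interval from −0.15 to −0.03; edgeR adjusted p = 0.15; two-sided exact permutation, unadjusted p = 0.00866). Dnm1, the main dynamin of nerve terminals, which pinches vesicles from the membrane, averaged 1236 ± 48.0 CPM in cKO and 1292 ± 25.4 CPM in WT (log2 fold change −0.06, SE 0.03, edgeR adjusted p = 0.238). For Dnm1, 4 of 6 cKO libraries lay below every WT library.

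Itsn1 (chromosome 16, 91729281 to 91920597) encodes intersectin, a scaffold that links dynamin and other endocytic proteins to the sites of retrieval. It measured 245, 254 and 258 CPM in the lowest, median and highest cKO library, against 256, 263 and 270.4 CPM in WT. Of the 6 cKO libraries 5 lay below every WT library, for a log2 fold change of −0.06 (SE 0.02, 95% interval from −0.10 to −0.015; edgeR adjusted p = 0.182; two-sided exact permutation, unadjusted p = 0.00433). The genes of the membrane-bending proteins amphiphysin and bridging integrator had positive log2 fold changes. Amph averaged 222 ± 3.17 CPM in cKO and 216 ± 3.76 CPM in WT (log2 fold change 0.04, SE 0.02, edgeR adjusted p = 0.456), and Bin1 averaged 256 ± 5.76 CPM in cKO and 247 ± 5.13 CPM in WT (log2 fold change 0.05, SE 0.02, edgeR adjusted p = 0.287). For Bin1 5 of 6 cKO libraries lay above every WT library. Sh3gl2, endophilin A1, and Synj1, the lipid phosphatase that sheds clathrin coats, had log2 fold changes of 0.0004 (SE 0.02) and −0.015 (SE 0.02), and Snap91 of 0.013 (SE 0.02).

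**Figure D3:**
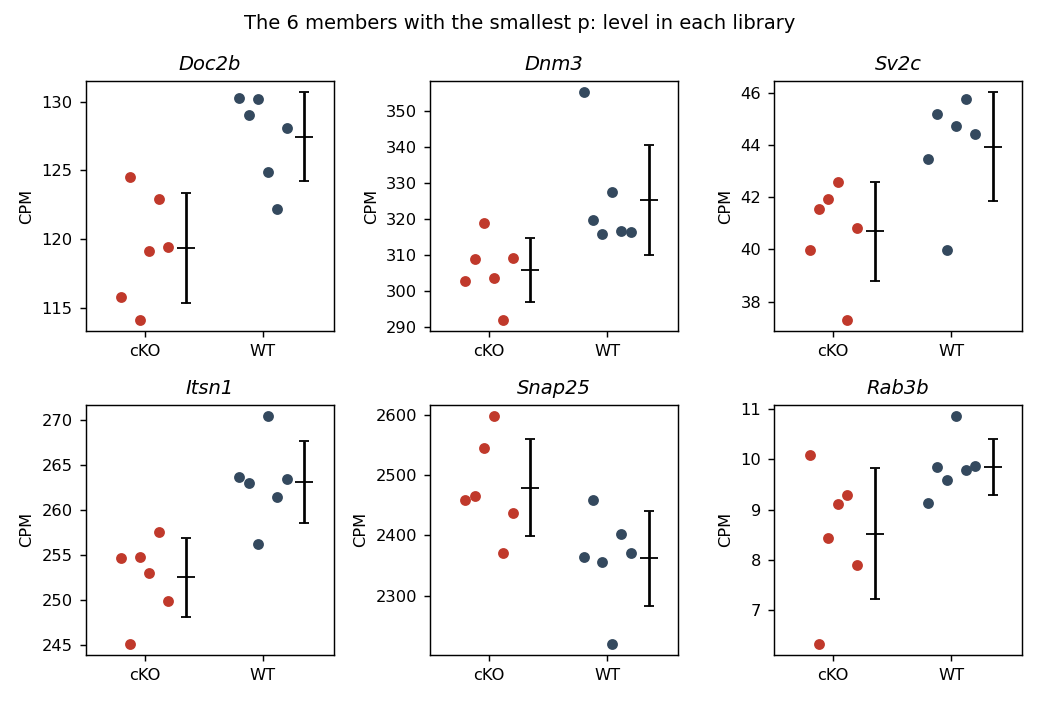
Level in CPM (y axes, not starting at 0) of the 6 members with the smallest p in each cKO and WT library. Dots are libraries and bars mean ± SD (n = 6 each). In every panel the genotypes overlap, and in Dnm3 and Itsn1 5 of 6 cKO libraries lie below every WT library.

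No library held the highest or the lowest level of most members. Among the 34 genes, 10 had their lowest level in cKO replicate 2, the most for any library, and 2 had their highest there. The same count was not taken over all genes, and a joint shift of members in that library was not tested. Replicate 5 of cKO held the highest level of 6 members and the lowest of 5. Most deviations were small, as the map of levels relative to the WT mean shows.

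**Figure D4:**
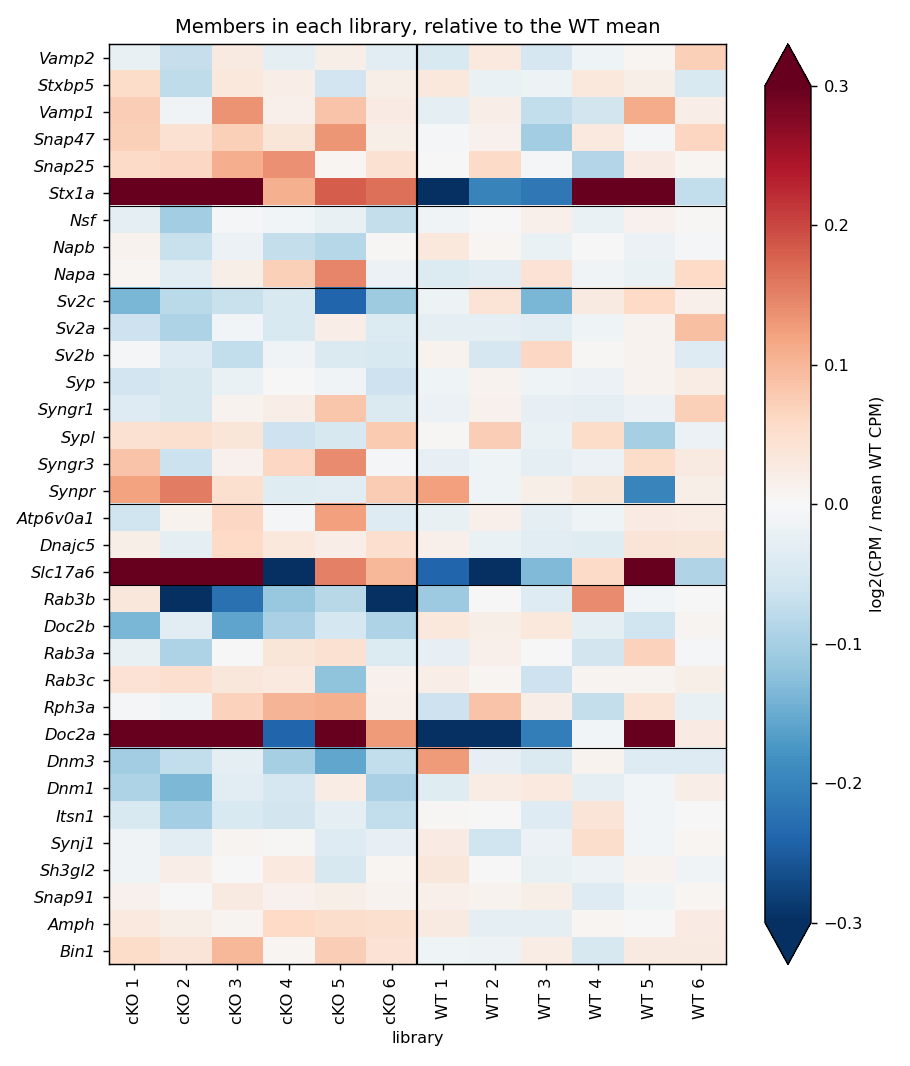
Level of each member (rows, by role) in each library (columns, cKO left of WT) as log2 of its CPM over the mean WT CPM, with colours saturating at 0.3 in either direction. Stx1a, Slc17a6 and Doc2a reach the end of the scale in libraries of both genotypes, while most rows stay pale throughout.

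Other genes of the vesicle cycle, taken from a list of 74, did include called genes. Of 72 tested, 3 rose and 3 fell (8.33%, against 2.64% of all tested genes), with a median log2 fold change of 0.0044. Among 16 fusion genes, the calcium sensor Syt1 and the complexin Cplx2 fell (log2 fold changes −0.39, SE 0.02, and −0.28, SE 0.03), while Syt2 and the priming factor Unc13a rose (0.22, SE 0.03, and 0.16, SE 0.04; edgeR adjusted p = 2.46e-08, 4.35e-05, 3.80e-05 and 0.0356). Among 15 vesicle genes the synapsin Syn2 fell (−0.14, SE 0.02, edgeR adjusted p = 0.00154), and among 27 endocytosis genes Hspa8, the chaperone that strips clathrin coats, rose (0.10, SE 0.02, edgeR adjusted p = 0.00815). Of 14 further subunits of the proton pump 0 were called and 0 had an unadjusted p under 0.05 (edgeR), with log2 fold changes of −0.04 to 0.05. The call of Hspa8 was lost without the 4 libraries highest in the tissue score (edgeR adjusted p = 0.166). That of Unc13a was lost in 10 of 20 alternatives, namely with the score, without its 4 highest libraries, with surrogate variables, and without cKO replicate 3, 4 or 5 or WT replicate 2, 3, 4 or 5 (edgeR adjusted p = 0.0507 to 0.4). These counts describe the lists, and no test compared them with the 34 members. The lists were chosen with earlier results of these data known, so their share of called genes is no evidence of an excess over all genes.

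**Figure D5:**
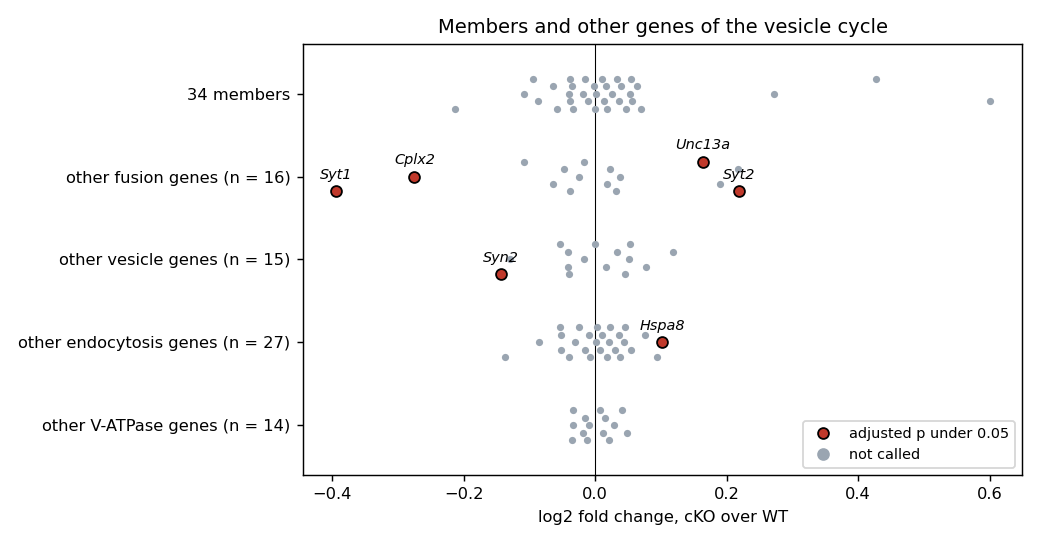
Log2 fold change, cKO over WT (x axis), of the 34 members and of 4 lists of other genes of the vesicle cycle (rows), 1 dot per gene, with called genes in red and named. The 6 called genes, Syt1, Cplx2, Syn2, Hspa8, Unc13a and Syt2, all lie outside the members, and most dots in every row lie close to 0.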

How the data were processed

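Messenger RNA of 12 cerebella (6 cKO, 6 WT) was sequenced from a stranded kit over shared lanes, per the labels' protocols. The authors deposited raw counts per gene symbol. Per the submitters' processing notes, the tools were STAR and DESeq2 and the build was mm10, with no versions. How reads were counted, with which strand rule and annotation, is not given in the sources used here. The authors also deposited a DESeq2 table with a mean normalised count (a signal), a log2 fold change with its standard error, a test statistic (a score) and p-values, per the file headers. Its sign matched that of the fold changes computed here in 400 of 400 genes called in both.

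Columns were matched to samples by their identifiers, and 0 were left over. Counts were tested in R 4.3.3 with edgeR 4.0.16: filterByExpr, TMM, glmQLFit and glmQLFTest over all 12 libraries with no covariate, and Benjamini-Hochberg adjustment over all 15467 genes at 0.05. Standard errors and 95% intervals came from the test statistic. Exact permutation tests used all 924 assignments of libraries to genotypes. The 34 members and all lists were chosen with earlier results of these data known. No test was made over the members or the other vesicle cycle genes as a set. The mean log2 CPM of each marker list was compared between genotypes by exact permutation. The rule for naming genes gave every called member, the 6 others with the smallest p and any whose groups did not overlap in full, and the rest in brief. Alternatives were other scalings, no filter, DESeq2 1.42.0, thinned counts, the tissue score, surrogate variables (sva 3.50.0) and each library left out. On 3 simulated sets of the cKO and WT comparison over 15467 genes, the edgeR test recovered 34% of changes of 1.1-fold, 76.7% of 1.2-fold, 94% of 1.5-fold and 99.3% of 2-fold, with 5 to 9 false calls a set. Gene positions and lengths are from GENCODE M21 (mm10). No library pair within a genotype was alike within sampling error (chi-square per degree of freedom at least 2.47). Members that overlap other annotated genes could carry their reads. Values of some single genes in the other lists are not reported here.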

Additional observations from a re-analysis of the deposited data

Results flagged for a closer look

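Among 68 sets of 6 libraries (34 genes in each genotype), 7 held a library whose gap to its nearest neighbour exceeded the 95% critical value of Dixon's ratio of that gap to the whole range, where chance would give about 1 in 20, or 3.4. Stx1a in cKO replicate 1 measured 6.03 CPM, against 3.60 CPM in the next library, and that library also had the highest tissue score. WT replicate 5, the WT library with the highest score, stood above the other WT libraries in Doc2a (2.17 CPM, next 1.11) and in Slc17a6 (43.3 CPM, next 30.7). Rab3c stood low in 1 library of each genotype, at 245 CPM in cKO replicate 5 (next 269) and 255 CPM in WT replicate 3 (next 268). Dnm3 was high in WT replicate 1 (355 CPM, next 327.5), and Sv2a in WT replicate 6 (597 CPM, next 565). Without WT replicate 1 the log2 fold change of Dnm3 was −0.06 (SE 0.02, edgeR adjusted p = 0.285).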

How the results depend on the processing

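Between 0 and 1 member was called under each of 20 alternatives. Doc2b was the one called, by DESeq2 and in 3 of 12 leave-one-out fits (members lower 0 to 1), and members called higher stayed at 0. Over the whole table, genes lower in cKO numbered 138 to 248 when 1 library was left out. The tissue score as a covariate gave 124 lower genes, leaving out its 4 highest libraries gave 89 higher and 68 lower, and surrogate variables gave 91 higher and 98 lower; the cause was not tested. Of 680 log2 fold changes of members under the alternatives, 635 kept their direction and their side of the threshold and 41 changed sign, none of them in a called value (edgeR adjusted p at least 0.611). With the score, Stxbp5 was at −0.016, Syngr1 at 0.019, Slc17a6 at −0.11, Rab3c at −0.00009 and Doc2a at −0.049. Without the 4 libraries, Stxbp5 was at −0.0014, Synpr at −0.031, Sypl at −0.026, Syngr1 at 0.017, Rab3a at 0.028, Rab3c at −0.022 and Sh3gl2 at −0.0013. With surrogate variables, Vamp1 was at −0.0091, Slc17a6 at −0.18, Atp6v0a1 at −0.014, Rab3c at −0.0043 and Doc2a at −0.24. Syngr1 was at 0.00005 with upper-quartile scaling and 0.0056 with thinned counts. With 1 library left out, the ranges were −0.011 to 0.0145 for Stxbp5, −0.0196 to 0.013 for Syngr1, −0.023 to 0.0039 for Rab3a, −0.0048 to 0.0098 for Sh3gl2, −0.0052 to 0.032 for Atp6v0a1 and −0.00204 to 0.034 for Rab3c. The median over the members was −0.0022 to 0.013 in those fits. Depth limits mainly Doc2a (12 to 130 counts) and Stx1a (48 to 198 counts). No paired analysis was possible because the labels give no replicate numbers, so the numbers used here follow the order of deposit and pair nothing.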
